A study of Mus musculus with 35 samples.

Results

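The genes described here are 10 that mark resting microglia, the resident immune cells of the brain: P2ry12, P2ry13, Tmem119, Cx3cr1, Siglech, Selplg, Gpr34, Slc2a5, Olfml3 and Sall1, out of 32285 genes in the count tables. They are a list of homeostatic genes given by name. Both readouts came from hippocampus of mice, and the question put to them was how these genes change inside microglial nuclei and in whole tissue when mutant human tau is expressed. Bulk RNA-seq of C57BL/6 hippocampus covered wild type (WT) animals at 9 months (n = 5) and 4 months (n = 6) and PS19 animals at 9 months (n = 4, replicate 2 not used here) and 4 months (n = 6), of a sex not given in the labels. Sequencing of single nuclei from about 50 mg of frozen hippocampus at 9 months covered 3 libraries each of WT and PS19 and 4 each of CLEAR and CLEAR_PS19 animals, with the last replicate of each group female and the others male. In PS19 mice the Prnp promoter, active mostly in neurons, drives mutant human tau. In CLEAR mice, as far as the design is known, the CLEAR element of Atp6v1h is mutated, a stretch that the lysosomal regulator TFEB binds, and CLEAR_PS19 animals have both changes. No bulk library of the CLEAR genotypes and no nuclei of 4 months were analysed here.

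Homeostatic genes form the program that microglia run in a healthy brain, where they survey tissue with moving processes. TGF-beta signalling and transcription factors such as SALL1, PU.1 and SMAD proteins keep the program on, and it is known to be turned down in microglia that take up an activated state around protein deposits or damaged neurons. By role, P2ry12 and P2ry13 encode receptors for ADP, Cx3cr1 the receptor for the neuronal ligand fractalkine (Cx3cl1), and Gpr34 a receptor for lysophosphatidylserine. Siglech encodes a lectin of the Siglec family that signals through the adaptor Tyrobp, Selplg the ligand of P-selectin, Tmem119 a membrane protein used to tell microglia from blood-derived macrophages, Slc2a5 a fructose transporter, Olfml3 a secreted glycoprotein, and Sall1 a zinc finger transcription factor.

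Promoter sequence is shown for the ADP receptor pair and for Siglech, 3 members whose transcript fell in PS19 microglia and which each hold a motif of the PU.1 and ETS family. Slc2a5 and Cx3cr1 were called lower there as well and hold no such motif in the 250 bases searched. RefSeq promoters (build GRCm38.p6) were found for 7 of the 10 members, in 9 windows. Each sequence covers the 250 bases before the annotated start, 5′ to 3′ on the gene's strand, and the capitals mark the motif. P2ry12 lies at chr3:59262986-59263235 (minus strand), P2ry13 at chr3:59210883-59211132 (minus strand) and Siglech at chr7:55767934-55768183 (plus strand).
P2ry12: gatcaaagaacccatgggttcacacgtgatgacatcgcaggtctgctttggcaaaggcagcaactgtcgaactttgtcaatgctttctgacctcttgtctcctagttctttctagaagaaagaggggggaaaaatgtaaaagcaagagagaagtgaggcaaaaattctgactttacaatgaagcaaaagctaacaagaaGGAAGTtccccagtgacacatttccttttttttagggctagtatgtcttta
P2ry13: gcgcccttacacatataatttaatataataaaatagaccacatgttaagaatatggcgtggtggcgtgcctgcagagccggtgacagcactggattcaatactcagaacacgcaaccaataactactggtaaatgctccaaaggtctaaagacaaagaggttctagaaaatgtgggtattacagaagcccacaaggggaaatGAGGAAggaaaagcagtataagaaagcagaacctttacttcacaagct
Siglech: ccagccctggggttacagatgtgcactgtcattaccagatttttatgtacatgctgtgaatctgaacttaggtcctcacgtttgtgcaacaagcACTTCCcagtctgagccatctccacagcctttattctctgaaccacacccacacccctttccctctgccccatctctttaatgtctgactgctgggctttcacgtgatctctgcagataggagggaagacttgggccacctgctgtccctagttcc

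The letters searched, on both strands, were GAGGAA for PU.1, GGAAGT for the ETS core and GTCTGG for SMAD, and each was counted on its own (GAGGAA and GGAAGT can overlap). The PU.1 letters stood in 1 of the 9 windows (P2ry13, at -48 from the start) and in 23.253% of all 32851 promoters of that length. The ETS letters stood in 3 of the 9 windows (P2ry12 at -51, Siglech at -156 on the reverse strand, where they read ACTTCC, and 1 of the Sall1 starts at -180) and in 19.741% of all promoters. The SMAD letters stood in 2 of the 9 windows, of Slc2a5 and Sall1, and in 14.736% of all promoters. These shares describe letters in a window only.

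In the genome (GRCm38, GENCODE M21) the 2 ADP receptor genes are neighbours on chromosome 3, P2ry12 at 59216272 to 59262871 and P2ry13 at 59207892 to 59210882, and both lie within Med12l, a Mediator subunit gene on the opposite strand. P2ry12 shares 9 exon bases (0.353% of its exon length) with Med12l. Cx3cr1 (chromosome 9, 119901616 to 120069879) spans 9 other genes and shares 78 exon bases (1.731%) with Gm33858. Gpr34 (chromosome X, 13632089 to 13640858) lies on the opposite strand within Cask and shares no exon base with it. Tmem119 and Selplg are close on chromosome 5 (113793729 to 113800516 and 113818536 to 113832644). Siglech (chromosome 7, 55768178 to 55778925), Slc2a5 (chromosome 4, 150119283 to 150144169), Olfml3 (chromosome 3, 103722222 to 103738001) and Sall1 (chromosome 8, 89027235 to 89044162) overlap no other counted gene. The bulk reads were counted without strand, where stated, so the values of P2ry12 and Cx3cr1 are slightly uncertain in bulk.

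Bulk libraries held 9.63 to 17.2 M (mega) counts and nuclei libraries 40.2 to 84.1 M unique molecular identifiers (UMIs, 1 per captured RNA molecule). After filters, 132322 nuclei were kept, of which 9194 (6.95%) formed microglia-like clusters (282 to 1399 per library) and 29292 were granule neurons of the dentate gyrus, a cell type particular to the hippocampus. No member was used to make or name these clusters. In the microglial nuclei Csf1r stood at a median of 868 CPM (counts scaled to a library total of 1 M) against 1.81 in the other nuclei, Inpp5d at 2005 against 1.46 and Ikzf1 at 932 against 0.536. These genes are in the marker list that named the clusters, so their high level follows from the naming. Of the markers of border macrophages, Cd163, Lyve1, Pf4 and Cbr2 had a median of 0 in these nuclei, F13a1 was at 0.986, Mrc1 at 4.73 and Ms4a7 at 7.60 CPM (range 0 to 90.2), and Stab1 at 190 CPM (62.3 to 289). Any 2 libraries shared at most 70 barcodes (0.629% of the smaller library), and no 2 libraries of a group were within sampling noise of each other. The closest pairs of nuclei libraries were replicates 1 and 2 of CLEAR and of CLEAR_PS19, at a chi-square per gene of 4.01 and 5.09, where the other 16 pairs lay between 40.3 and 126. Whether each of these pairs came from 1 animal cannot be told from the labels, so calls that changed when each was summed to 1 library, an alternative chosen after seeing the data, are named below. In granule neurons the nuclei libraries fell into 3 sets by correlation. Set 2 held the 4 libraries from females and set 3 replicates 1 and 2 of both CLEAR genotypes. Set 1 held the rest, replicates 1 and 2 of WT and of PS19 and replicate 3 of both CLEAR genotypes.

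Over all libraries summed, 9 of the members had most of their UMIs in microglia, and P2ry12 did not. Of all UMIs in kept nuclei, microglia held 95.4% for Siglech, 91.0% for Selplg, 86.2% for Slc2a5 and 84.0% for Tmem119. The share was 70.1% for Olfml3, 61.1% for Sall1, 59.2% for Gpr34, 52.8% for Cx3cr1 and 51.7% for P2ry13. These shares differed between genotypes, as did the number of microglia. In WT they were 39.3% for Cx3cr1, 40.2% for P2ry13 and 43.0% for Gpr34, and in PS19 63.4%, 51.0% and 61.7%, so that the order of the genes differed between genotypes. For Sall1 a further 23.6% lay in oligodendrocytes. P2ry12 had 14.4% of its UMIs in microglia, 30.3% in granule neurons and 33.9% in other excitatory neurons. Relative to all UMIs of the class, P2ry12 stood at a median of 1135 CPM in microglia and 162 CPM in granule neurons, and per nucleus at 1.82 and 1.203 UMIs. Granule neurons held 363 P2ry12 UMIs for each Siglech UMI and microglia held 1.07. Every other member also had more UMIs per Siglech UMI in granule neurons, which held 97 Siglech UMIs, than in microglia. The other receptors came next, Cx3cr1 at 34.3 against 1.08, Gpr34 at 15.1 against 0.622 and P2ry13 at 3.22 against 0.0724. Selplg stood at 1.29 against 0.599, Olfml3 at 1.28 against 0.0994, Tmem119 at 0.691 against 0.121, Sall1 at 0.433 against 0.279 and Slc2a5 at 0.165 against 0.0754. Siglech was the member most confined to microglia, so this direction depends on the gene chosen as the base. The part of free RNA in the neuronal UMIs was not tested. Med12l, on the opposite strand, was at 265 CPM in granule neurons and 696 CPM in microglia. P2ry12 and Med12l stood at 109 and 179 CPM in other excitatory neurons and at 98.4 and 176 CPM in inhibitory neurons. They stood at 76.6 and 139 CPM in astrocytes and at 10.6 and 16.4 CPM in oligodendrocytes. Among the classes compared, P2ry12 stood above Med12l only in microglia and border macrophages (514 and 219 CPM). The part of Med12l in the neuronal P2ry12 signal was not tested.

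**Figure D1:**
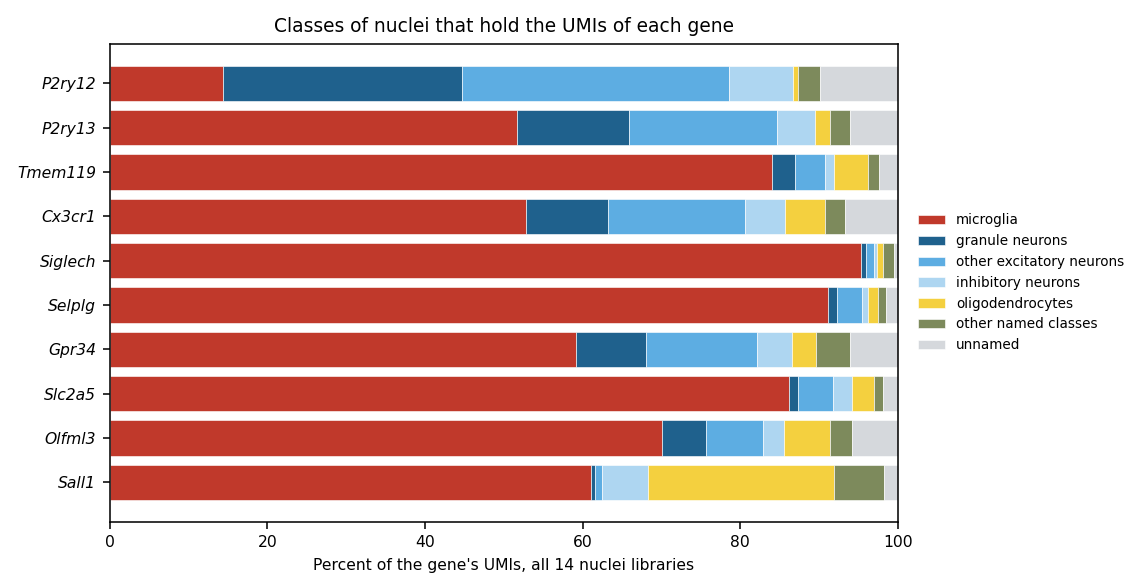
Share of each gene's UMIs (x axis, percent) that lay in each class of nuclei, summed over the 14 nuclei libraries, 1 bar per member. Siglech and Selplg lay almost wholly in microglia, and P2ry12 lay mostly in neurons (14.4% in microglia).

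In bulk hippocampus at 9 months, 9 of the 10 members were higher in PS19 than in WT animals, by 1.38-fold (P2ry12) to 2.09-fold (Cx3cr1), and Slc2a5 did not pass the test. A gene was called where the adjusted p of edgeR's quasi-likelihood test (Benjamini-Hochberg over all 16133 genes tested) was under 0.05. Of all genes, 12.8% were called in either direction and 7.68% as higher. The median log2 difference was 0.74 over the members and -0.01 over all genes tested. In bulk tissue, more microglia, more RNA per microglial cell and less RNA from other cells cannot be told apart, since CPM are relative.

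Cx3cr1, the receptor for fractalkine, had the largest difference. It stood at 51.4, 51.3, 51.2, 50.4 and 53.9 CPM in WT at 9 months and at 96.7, 104, 109 and 122 CPM in PS19, which left a wide gap between the groups (log2 difference 1.06, SE 0.08, adjusted p 5.70e-09). Gpr34 stood at 9.73, 11.4, 9.51, 12.2 and 10.5 CPM in WT and at 19.8, 17.5, 22.3 and 19.98 CPM in PS19 (log2 0.90, SE 0.10, adjusted p 2.26e-06). P2ry13 stood at 12.4, 11.4, 10.4, 14.6 and 11.01 CPM in WT and at 19.3, 23.3, 21.4 and 20.1 CPM in PS19 (log2 0.82, SE 0.10, adjusted p 5.17e-06). For these 3 receptors each PS19 library lay above each WT library. The other ADP receptor moved less: P2ry12 stood at 36.4, 41.8, 36.1, 44.2 and 41.9 CPM in WT and at 51.8, 48.4, 59.7 and 61.8 CPM in PS19, again with no overlap (log2 0.47, SE 0.08, adjusted p 0.000379).

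Among the surface proteins, Siglech stood at 13.3, 15.1, 14.3, 15.6 and 10.8 CPM in WT and at 21.4, 25.5, 22.4 and 29.0 CPM in PS19 (log2 0.83, SE 0.12, adjusted p 2.29e-05). Selplg stood at 28.0, 29.7, 27.9, 29.1 and 25.2 CPM in WT and at 41.9, 41.2, 31.7 and 52.3 CPM in PS19 (log2 0.58, SE 0.11, adjusted p 0.00129). Tmem119 stood at 23.4, 23.9, 25.1, 21.3 and 21.2 CPM in WT and at 31.8, 43.2, 26.9 and 57.3 CPM in PS19 (log2 0.79, SE 0.14, adjusted p 0.000584). The PS19 libraries spread widely for Selplg and Tmem119, with replicate 4 lowest and replicate 5 highest for both, and still did not overlap WT. The transcription factor gene Sall1 stood at 32.6, 26.6, 30.4, 29.4 and 32.01 CPM in WT and at 42.6, 41.1, 39.8 and 50.4 CPM in PS19 (log2 0.53, SE 0.08, adjusted p 4.35e-05).

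Olfml3 and Slc2a5 had overlapping groups. Olfml3 stood at 17.0, 19.4, 16.5, 12.5 and 19.8 CPM in WT and at 21.2, 41.9, 16.9 and 30.3 CPM in PS19, where replicate 4 lay inside the WT range (log2 0.69, SE 0.20, adjusted p 0.0244). Its call was lost without PS19 replicate 3 (log2 0.43, adjusted p 0.160), without PS19 replicate 5 (adjusted p 0.0819) or without WT replicate 4 (adjusted p 0.0630). Slc2a5, the fructose transporter, stood at 5.33, 6.50, 4.21, 5.45 and 6.36 CPM in WT and at 5.74, 7.45, 6.28 and 6.46 CPM in PS19, a difference within the spread of the libraries (log2 0.22, SE 0.19, adjusted p 0.494).

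**Figure D2:**
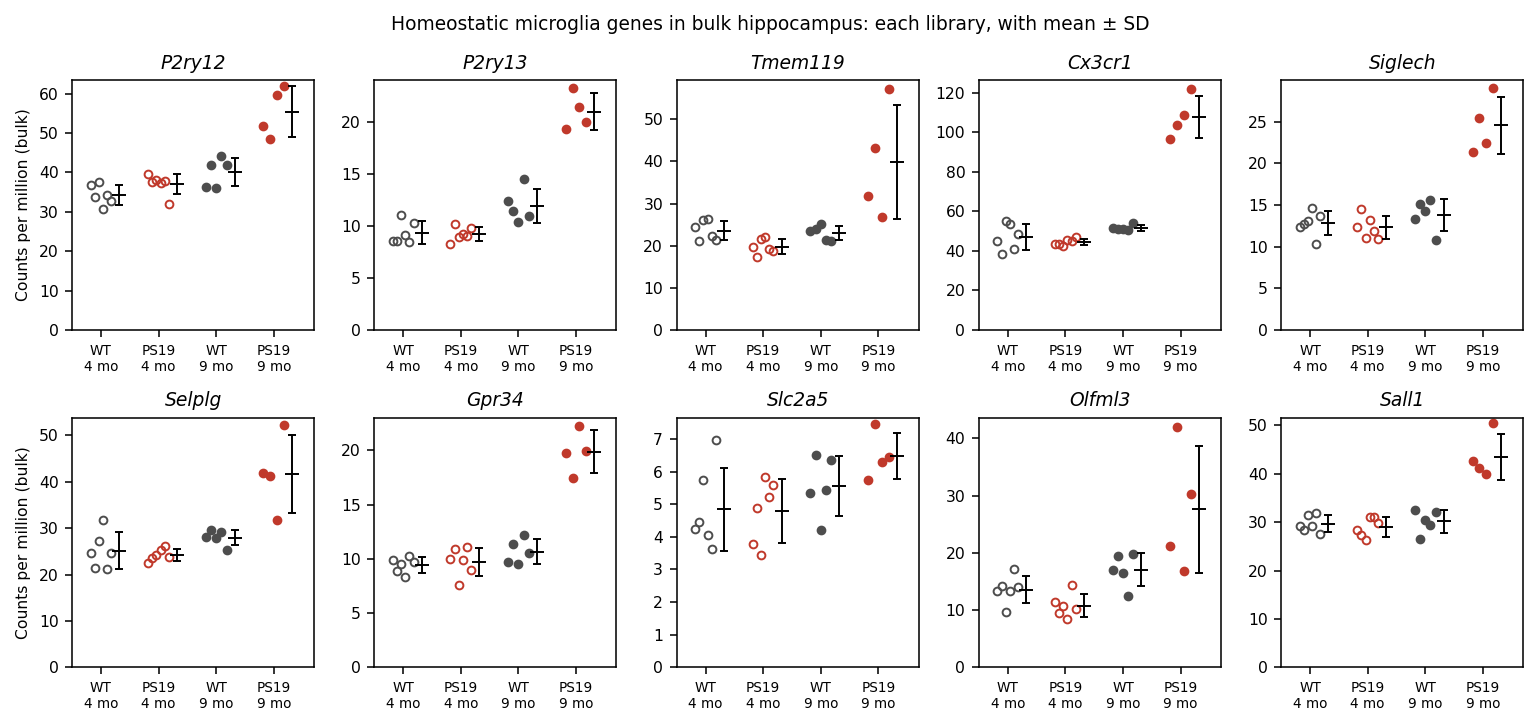
Bulk level of each member (y axis, CPM) in every library of WT and PS19 hippocampus at 4 and 9 months, with mean and SD beside the points. At 9 months the PS19 points lie above all WT points for 8 of the 10 genes (8.01% of all genes tested), and at 4 months the groups overlap for all 10.

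At 4 months the same genes did not separate. With edgeR, 0 of the 10 members were called between PS19 and WT (0 with an unadjusted p under 0.05, and 0 with DESeq2), and 0.0186% of all genes were. The log2 differences ran from -0.33 to 0.11, 2 positive and 8 negative. Cx3cr1 ranged from 38.6 CPM (median 46.8, highest 55.0) in WT and from 42.4 CPM (median 44.4, highest 47.0) in PS19. P2ry12 ranged from 30.7 CPM (median 34.1, highest 37.5) in WT and from 32.1 CPM (median 37.8, highest 39.7) in PS19. Tmem119 ranged from 21.1 CPM (median 23.4, highest 26.2) in WT and from 17.3 CPM (median 19.4, highest 22.0) in PS19. All 10 genes had overlapping groups at this age, and 0.155% of all genes did not overlap.

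The PS19 difference itself changed with age for 8 of the 10 members, against 5.41% of all genes. The change of the log2 difference from 4 to 9 months was 1.14 for Cx3cr1, 1.05 for Tmem119, 1.03 for Olfml3, 0.89 for Siglech, 0.86 for Gpr34, 0.84 for P2ry13, 0.63 for Selplg and 0.56 for Sall1. It did not pass for P2ry12 (0.36, adjusted p 0.0582) or Slc2a5 (0.23, adjusted p 0.683). Selplg lost its call without PS19 replicate 5 at 9 months, and Olfml3 without any 1 of 4 libraries (WT replicate 4, PS19 replicate 3 or 5 at 9 months, or WT replicate 5 at 4 months). Within PS19, 9 members were higher at 9 than at 4 months, all but Slc2a5 (log2 0.43, adjusted p 0.104), against 10% of all genes called higher and 17.3% called in either direction. The largest of these were Olfml3 (log2 1.36), Cx3cr1 (1.27) and P2ry13 (1.18). Within WT, 0 members were called between the ages by edgeR (2 with an unadjusted p under 0.05, P2ry12 at log2 0.22 and P2ry13 at 0.35, and 0 with DESeq2), and 0% of all genes were.

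Levels of different genes were compared per exon length, as CPM per kilobase of exon (RPKM). In WT bulk at 9 months P2ry12 was first at 15.7 ± 1.43 (SD, n = 5), followed by Cx3cr1 at 11.5, Tmem119 at 9.93, Selplg at 6.55, Sall1 at 5.74, Gpr34 at 5.11, P2ry13 at 4.73, Siglech at 4.08, Olfml3 at 2.77 and Slc2a5 at 1.64. In PS19 at 9 months (n = 4) the 2 leading genes stood in the other order, Cx3cr1 at 23.9 and P2ry12 at 21.8 ± 2.51 RPKM, and their libraries overlapped. Slc2a5 stayed last at 1.91 RPKM. Over the 21 bulk libraries, the genes whose log2 CPM followed the members' mean most closely, members left out, were led by Lag3 (Pearson r 0.969) and Ncf1 (0.966), a description with no p.

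Inside microglial nuclei the direction was the opposite. All 10 members had a lower fitted level in PS19 than in WT, and 8 were called lower (edgeR, 10364 genes tested), against 10.5% of all genes called in either direction and 4.66% called lower. In each of the 10, the 3 PS19 libraries lay below the 3 WT libraries, as they did in 11.5% of all genes tested. The median log2 difference was -1.15 over the members and -0.02 over all genes. The values below are CPM of the counts summed over the microglial nuclei of a library, in replicate order.

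Slc2a5, which was flat in bulk, fell most: it stood at 105, 145 and 150.2 CPM in WT and at 24.2, 22.9 and 67.5 CPM in PS19 (log2 -1.95, SE 0.31, adjusted p 0.000758). Tmem119 stood at 152, 135 and 161 CPM in WT and at 23.5, 31.5 and 93.5 CPM in PS19 (log2 -1.76, SE 0.48, adjusted p 0.0256). PS19 replicate 3, from a female, was the highest of its group for both genes, as it was for every other member. Selplg stood at 817, 951 and 808 CPM in WT and at 337, 257 and 423 CPM in PS19 (log2 -1.35, SE 0.21, adjusted p 0.000736). Siglech stood at 1703, 1532 and 1395 CPM in WT and at 522, 478 and 979 CPM in PS19 (log2 -1.30, SE 0.20, adjusted p 0.000736). Both genes had their highest PS19 library well below the lowest WT library.

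Among the receptors, P2ry13 stood at 85.3, 107 and 78.3 CPM in WT and at 35.1, 30.004 and 49.6 CPM in PS19 (log2 -1.28, SE 0.36, adjusted p 0.0312). P2ry12 stood at 1610.1, 1354 and 1142 CPM in WT and at 573, 599 and 857 CPM in PS19 (log2 -1.005, SE 0.21, adjusted p 0.00528). The fractalkine receptor moved less: Cx3cr1 stood at 1233, 1198 and 1122 CPM in WT and at 744, 790.1 and 894 CPM in PS19 (log2 -0.55, SE 0.15, adjusted p 0.0215). Gpr34 stood at 648, 559.9 and 538 CPM in WT and at 371, 307 and 495 CPM in PS19, and did not pass (log2 -0.57, SE 0.27, adjusted p 0.228). Sall1 stood at 371, 329 and 323 CPM in WT and at 190.4, 204 and 227 CPM in PS19 (log2 -0.72, SE 0.17, adjusted p 0.0102). Olfml3 stood at 130.3, 91.1 and 78.3 CPM in WT and at 40.4, 35.6 and 78.0 CPM in PS19, where the highest PS19 and the lowest WT library almost met, and did not pass (log2 -1.02, SE 0.32, adjusted p 0.0525). With 3 libraries a group, 4 members were called without WT replicate 1, PS19 replicate 1 or PS19 replicate 2, 5 without WT replicate 2 and 10 without PS19 replicate 3. P2ry13, Tmem119, Cx3cr1 and Sall1 were the calls lost, with log2 differences that stayed between -1.86 and -0.46.

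**Figure D3:**
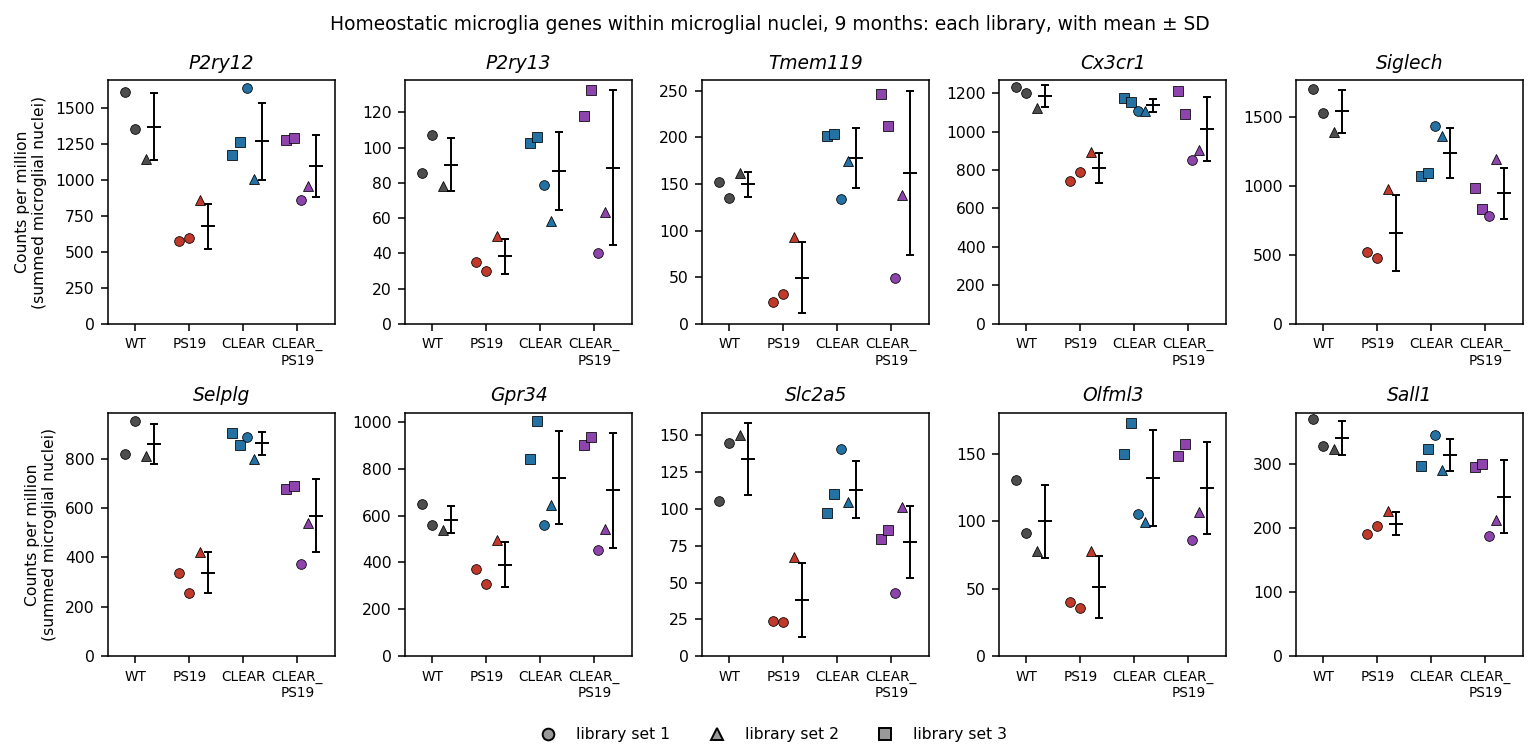
Level of each member in summed microglial nuclei (y axis, CPM) in every library of the 4 genotypes at 9 months, with mean and SD beside the points and symbols for the 3 library sets. In all 10 genes the 3 PS19 points lie below the 3 WT points, and in all 10 the lowest CLEAR_PS19 point is that of set 1.

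The share of nuclei with at least 1 UMI moved the same way when each nucleus was thinned to 1000 UMIs (46 WT and 74 PS19 microglia with fewer were left out). It was 69.6% in WT and 43.6% in PS19 microglia for P2ry12 (84.5% and 64.3% unthinned), 73.3% and 40.9% for Siglech, 56.1% and 26.9% for Selplg, and 66.0% and 52.1% for Cx3cr1. For the less abundant members it was 13.6% and 4.55% for Tmem119, 11.5% and 3.83% for Slc2a5, and 9.43% and 4.76% for Olfml3. In WT granule neurons at the same depth it was 13.5% for P2ry12, 1.47% for Cx3cr1, 0.644% for Gpr34 and 0.0363% for Siglech. These shares depend on the depth chosen. Thinned to 2000 UMIs, which left out 647 of 1028 WT and 1349 of 3202 PS19 microglia, the share was 89.9% in WT and 65.6% in PS19 for P2ry12, and it was lower in PS19 for 10 of 10 members at both depths. Median UMIs per microglial nucleus were 1861 ± 359 in WT (SD, n = 3), 2122 ± 458 in PS19 (n = 3), 1615 ± 217 in CLEAR (n = 4) and 1559 ± 646 in CLEAR_PS19 (n = 4).

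In the CLEAR background no member passed the test with the tau transgene. Between CLEAR_PS19 and CLEAR microglia, edgeR called 0 of the 10 members (4 with an unadjusted p under 0.05, and 0 with DESeq2), against 0.743% of all genes. Without a filter on low counts, or with the library set or the replicate number as a block, 1 member was called in each fit. Selplg was the one member whose CLEAR_PS19 libraries all lay below the CLEAR libraries, as 2.3% of all genes did: it stood at 904, 856, 889 and 796 CPM in CLEAR and at 676, 688, 373 and 540.0 CPM in CLEAR_PS19 (log2 -0.60, SE 0.18, adjusted p 0.155). Siglech stood at 1072, 1095, 1436 and 1361 CPM in CLEAR and at 984, 833, 782 and 1196 CPM in CLEAR_PS19 (log2 -0.40, adjusted p 0.382). Tmem119 stood at 201, 204, 134 and 175 CPM in CLEAR and at 247, 213, 49.4 and 138 CPM in CLEAR_PS19, so that the double genotype held both the highest and the lowest library (log2 -0.14, SE 0.39, adjusted p 0.956). P2ry12 stood at 1169, 1266, 1636 and 1003 CPM in CLEAR and at 1277, 1287, 861 and 959.6 CPM in CLEAR_PS19 (log2 -0.21, adjusted p 0.789). Replicate 3 of CLEAR_PS19 was the lowest library of its group for all 10 members.

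Averaged over both backgrounds, 6 members were lower in microglia with the transgene, against 5.37% of all genes called lower and 12.5% in either direction: Slc2a5 (log2 -1.27, adjusted p 0.000425), Selplg (-0.97), Siglech (-0.85), P2ry12 (-0.61), Sall1 (-0.53) and Cx3cr1 (-0.36, adjusted p 0.0196, lost without WT replicate 1, PS19 replicate 1 or PS19 replicate 2). Tmem119 (-0.95, adjusted p 0.0524), P2ry13 (-0.63, 0.0991), Olfml3 (-0.56, 0.0956) and Gpr34 (-0.34, 0.263) did not pass. With the library set as a block all 10 were called lower, against 16.9% of all genes called in either direction in that fit, these 4 at log2 -1.04 (Tmem119, adjusted p 0.000447), -0.66 (P2ry13, 0.00297), -0.58 (Olfml3, 0.00842) and -0.37 (Gpr34, 0.00729).

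The test of the difference between the backgrounds called 0 members with edgeR (7 with an unadjusted p under 0.05, and 0 with DESeq2), and 0% of all genes. The estimates were positive for all 10, from 0.38 (Sall1 and Cx3cr1) to 1.62 (Tmem119, SE 0.62, adjusted p 0.519). Without a filter on low counts 5 members were called (0.934% of all genes), without CLEAR_PS19 replicate 3 the count was 3 and without PS19 replicate 3 it was 2. Whether the effect of tau differed between the backgrounds thus depended on the filter and on single libraries. Set directly against PS19, CLEAR_PS19 microglia had a higher fitted level in all 10 members (log2 0.26 to 1.92, 9 with an unadjusted p under 0.05), and 1 was called, against 0.618% of all genes. That gene was Olfml3, at 148, 157, 86.3 and 107 CPM in CLEAR_PS19 (log2 1.33, SE 0.29, adjusted p 0.0481), a call lost without any 1 of 10 libraries and with the close pairs summed (adjusted p 0.188). It was also lost without the sex term (adjusted p 0.109), with the library set as a block (0.0882), with only the groups compared (0.110) and with nuclei of at least 1000 genes (0.0733), while DESeq2 called 4 members (1.14% of all genes) and edgeR without a filter 8 (3.64%). Olfml3 and P2ry12 were the 2 members whose CLEAR_PS19 libraries all lay above the PS19 libraries, against 3.56% of all genes, and for P2ry12 the lowest CLEAR_PS19 library (861 CPM) and the highest PS19 library (857 CPM) almost met. For the mutation without tau, edgeR called 0 of 10 between CLEAR and WT (0 with an unadjusted p under 0.05, and 0 with DESeq2), with log2 differences from -0.31 to 0.40, against 0.00965% of all genes. PS19 and WT stood only in library sets 1 and 2, and 2 of the 4 CLEAR_PS19 libraries stood in set 3, so genotype and set are partly confounded.

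Within the sets, the ratio of libraries with to those without the transgene lay furthest below 1 in set 1. There all 10 members were lower in the WT background (2 libraries against 2, log2 -2.36 to -0.62, median -1.51) and all 10 in the CLEAR background (1 against 1, -1.67 to -0.26, median -0.87). In set 2, the females, 9 were lower in the WT background (1 against 1, -1.11 to 0.04, median -0.47) and 8 in the CLEAR background (-0.55 to 0.13, median -0.20). In set 3, which held only the CLEAR background, 7 were lower (2 against 2, -0.38 to 0.25, median -0.05). In both sets that hold both backgrounds, the median fall was smaller in the CLEAR background. These within-set values carry no test.

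Microglia themselves were a larger share of named nuclei with tau. They made up 4.37% ± 0.66 of named nuclei in WT (SD, n = 3, range 3.73 to 5.05), 12.2% ± 3.61 in PS19 (n = 3, 9.14 to 16.2), 5.47% ± 0.84 in CLEAR (n = 4, 4.24 to 6.09) and 8.30% ± 2.00 in CLEAR_PS19 (n = 4, 6.44 to 11.1). In both backgrounds each library with the transgene lay above each without it. Such a share cannot tell more microglia from fewer other nuclei. The difference with tau was 5.34 percentage points over both backgrounds (exact permutation p 0.001429, the smallest that 1400 relabellings give, adjusted over 2 tests 0.002857), and with labels exchanged only within library sets the exact permutation p was 0.006944. With only nuclei of at least 1000 genes it did not pass (4.98 points, adjusted exact permutation p 0.0543). Within sets it was 9.73 and 4.09 points in the WT background (sets 1 and 2) and 6.89, 1.97 and 1.22 points in the CLEAR background (sets 1, 2 and 3). The difference with the CLEAR mutation was -1.41 points over both (exact permutation p 0.323), an average of 1.10 points without tau and -3.93 points with tau, and the same signs held within sets 1 and 2. The difference between those values was not tested. Microglia came from 2 clusters of unequal use: cluster 12 held 3.85% ± 2.16 of microglia in WT (n = 3), 81.1% ± 29.2 in PS19 (n = 3), 5.55% ± 2.17 in CLEAR (n = 4) and 28.9% ± 31.2 in CLEAR_PS19 (n = 4), and cluster 7 held the rest.

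Summed over all nuclei, which stands nearest to bulk tissue, the 2 opposite movements met. In PS19 against WT the microglial share of all UMIs rose from 0.916% to 3.91% (log2 2.10), while within microglia the members lay between log2 -1.76 and -0.51. This UMI share mixes the share of named nuclei (4.37% in WT, 12.2% in PS19) with UMIs per nucleus, in microglia and elsewhere. All 10 members had a higher fitted level in all nuclei, and 6 of 10 were called higher (22108 genes tested, 3.96% of all genes called higher and 6.06% in either direction): Gpr34 (log2 0.85, adjusted p 0.0105), Sall1 (0.80, 0.0213), Cx3cr1 (0.77, 0.0108), Olfml3 (0.75, 0.0486), Siglech (0.64, 0.0499) and Selplg (0.55, 0.0337). Cx3cr1 stood at 25.8, 23.5 and 33.6 CPM in WT and at 42.6, 54.9 and 42.5 CPM in PS19, with no overlap. The genes that fell most within microglia were not called here. Slc2a5 stood at 1.07, 1.44 and 1.74 CPM in WT and at 1.06, 1.45 and 1.93 CPM in PS19 (log2 0.05). Tmem119 stood at 1.63, 1.49 and 1.95 CPM in WT and at 1.14, 1.94 and 2.67 CPM in PS19 (log2 0.16). P2ry12 stood at 119, 91.7 and 154 CPM in WT and at 128, 98.8 and 162 CPM in PS19 (log2 0.09), with most of its UMIs outside microglia. The log2 values in all nuclei given here are fitted, while those of the UMI share and within microglia are ratios of mean plain CPM. By such ratios all nuclei changed by log2 0.18 for Slc2a5, 0.30 for Tmem119 and 0.20 for P2ry12.

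These calls rest on single libraries: 0 of the 6 stood without WT replicate 2, without PS19 replicate 2 or with only the PS19 and WT libraries in the fit, 1 (Gpr34) without WT replicate 1 3 without PS19 replicate 1 and 3 (Gpr34, Sall1 and Cx3cr1) with the close pairs summed. Siglech or Olfml3 was lost without any other library except CLEAR_PS19 replicate 3. Averaged over both backgrounds the same 6 genes were called, against 4.03% of all genes called higher and 6.64% in either direction, with log2 differences of 0.63 (Olfml3), 0.60 (Gpr34), 0.53 (Cx3cr1 and Siglech), 0.50 (Sall1, lost without WT replicate 1 or 2) and 0.34 (Selplg, lost without any 1 of 9 libraries). Sall1 and Selplg were lost with the close pairs summed too. In CLEAR_PS19 against CLEAR, edgeR called 0 members (4 with an unadjusted p under 0.05, 0 with DESeq2, 0.0678% of all genes), with the microglial UMI share at log2 0.82 and log2 differences in all nuclei of -0.02 (P2ry12) to 0.51 (Olfml3). CLEAR against WT gave 0 (3 unadjusted, 0 with DESeq2, 0.00452% of all genes), CLEAR_PS19 against PS19 gave 0 (3 unadjusted, 0 with DESeq2, 0.00905% of all genes), and the difference of the tau effect between backgrounds gave 0 (4 unadjusted, 0 with DESeq2, 0% of all genes).

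**Figure D4:**
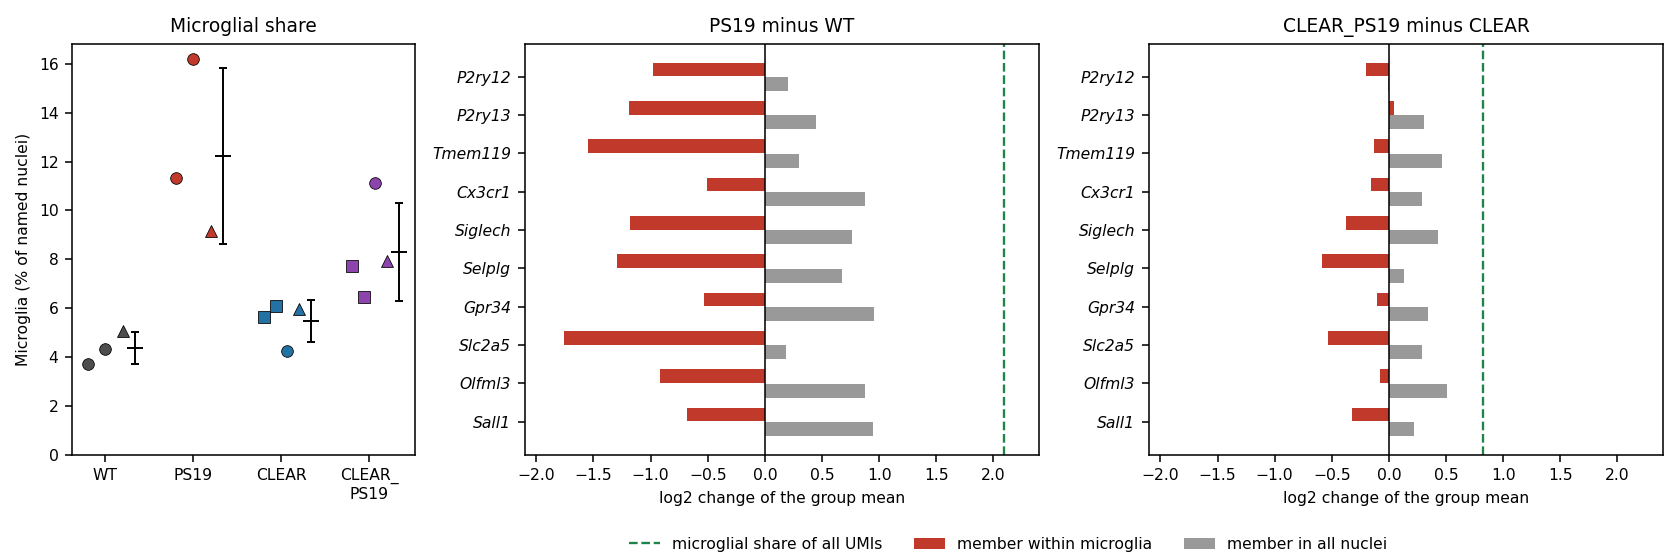
Left, microglia as percent of named nuclei in each library, with mean and SD. Middle and right, log2 change of each member with tau in the WT and in the CLEAR background, shown for the microglial share of UMIs, within microglia and in all nuclei. The share rose by 2.10 and 0.82. Within microglia every member was lower in the WT background. In the CLEAR background all but P2ry13 (0.0408) had lower values, and edgeR called none.

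When only the UMIs that lay in microglia were counted, relative to all UMIs of a library, each member still had a higher mean in PS19 than in WT. The ratio was 2.97 for Cx3cr1, 2.77 for Gpr34, 2.65 for Sall1, 2.10 for P2ry12, 2.05 for Olfml3, 1.74 for P2ry13, 1.70 for Siglech, 1.62 for Selplg, 1.21 for Tmem119 and 1.05 for Slc2a5. In CLEAR_PS19 against CLEAR it ran from 1.10 (Selplg) to 1.61 (P2ry13). Outside microglia the ratio in PS19 against WT ran from 1.04 (P2ry12) to 1.78 (Slc2a5), with Siglech at 1.59, Olfml3 at 1.53, Selplg at 1.47 and Tmem119 at 1.32. For Slc2a5 and Tmem119 it was above the ratio in microglia, at low levels. Outside microglia Slc2a5 stood at 0.167 ± 0.0336 CPM in WT (SD) and 0.298 ± 0.103 in PS19, and Tmem119 at 0.300 ± 0.0695 and 0.398 ± 0.143. In microglia Slc2a5 stood at 1.19 ± 0.372 and 1.24 ± 0.345 CPM, and Tmem119 at 1.32 ± 0.303 and 1.59 ± 0.673, with overlapping libraries for both. Set beside these ratios, the bulk differences at 9 months had the same gene at the bottom (Slc2a5) and the same gene at the top (Cx3cr1), and over the 10 genes the log2 values had a Pearson correlation of 0.517 with the bulk differences. With the change within microglia the bulk differences had a correlation of 0.547. The microglial part is the level within microglia times a UMI share common to all genes of a library. The 2 correlations are thus close to the same comparison. Both correlations are descriptions over 10 points with no p. The bulk value lay furthest below the microglial part for Sall1 (log2 0.53 against 1.40) and furthest above it for Tmem119 (0.79 against 0.27).

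The members were also lower in nuclei that carried more activation transcripts. A list of 20 genes of activated microglia (19 matched, among them Cst7, Itgax, Lpl and Axl) was counted in each microglial nucleus after thinning to 1000 UMIs. Nuclei with 5 or more such UMIs, a range of a score and not a cell type, were 1.96% ± 0.52 of microglia in WT (SD, n = 3), 45.9% ± 21.4 in PS19 (n = 3), 6.25% ± 4.55 in CLEAR (n = 4) and 27.2% ± 15.9 in CLEAR_PS19 (n = 4). In PS19, 686 of 3128 nuclei lay at the limit or 1 UMI below it. The share depended on the limit: at 3 UMIs it was 17.0% in WT and 69.6% in PS19, and at 8 UMIs 0% and 21.4%. Nuclei under 1000 UMIs were left out, 741 of them in CLEAR_PS19, most from replicate 2 (368 of 852) and replicate 4 (287 of 668). Within the 6 libraries with tau that held at least 20 nuclei on both sides, each of the 10 members was lower in nuclei at or above the limit in 6 of 6 libraries. With the library as a block, 8 were called lower, against 4.51% of all genes called lower and 10% in either direction (9822 tested): Slc2a5 (log2 -0.89), Siglech (-0.75, SE 0.05, adjusted p 3.55e-16), Sall1 (-0.65), Selplg (-0.61), Tmem119 (-0.53), P2ry12 (-0.51), P2ry13 (-0.45, lost without any 1 of 4 libraries) and Gpr34 (-0.35). Olfml3 (-0.30, adjusted p 0.0897) and Cx3cr1 (-0.13, adjusted p 0.0580) did not pass.

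Over 4 steps of activation UMIs (0 to 2, 3 to 4, 5 to 7, and 8 or more) the same 6 libraries were set each against its own lowest step. At 8 or more UMIs (at least 52 nuclei per library), the mean level over libraries was 40.9% ± 7.20 of the lowest step for Siglech (SD, n = 6), 43.0% ± 8.11 for Selplg, 44.7% ± 5.87 for Sall1, 45.9% ± 10.4 for P2ry12 and 45.9% ± 15.6 for Tmem119. Apart from Olfml3, each member was below its lowest step in all 6 libraries. Cx3cr1 kept 82.6% ± 9.66, P2ry13 69.7% ± 19.5, Gpr34 66.8% ± 14.3 and Olfml3 70.1% ± 30.7, the last with 1 library at 127%. At the second step (3 to 4 UMIs) the means lay between 81.8% (Slc2a5) and 123% (P2ry13), so most of the decline lay above it. Slc2a5 had 0 to 20 UMIs per library at the top step, too few for a level. Tmem119, P2ry13 and Olfml3 were also low in some libraries. In PS19 replicate 1 they stood at 16.6, 28.9 and 34.7 CPM in nuclei with 5 or more activation UMIs, and Slc2a5 at 19.5 CPM. In CLEAR_PS19 replicate 1 the values were 220, 97.6, 144 and 48.8 CPM, in the same order. The 4 steps are a description with no test.

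**Figure D5:**
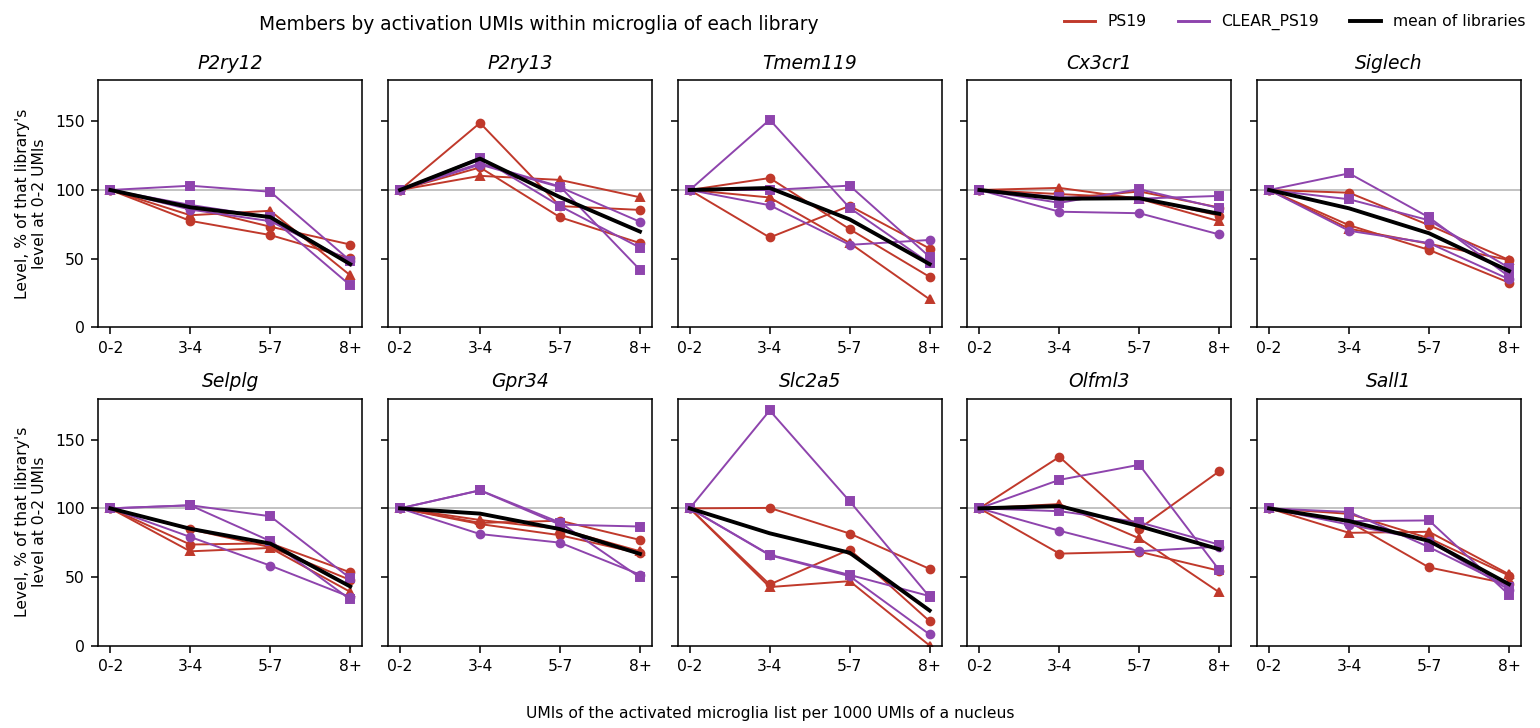
Level of each member (y axis, percent of the same library's level at 0 to 2 activation UMIs) in microglial nuclei grouped by activation UMIs after thinning to 1000 UMIs (x axis), 1 line per library of 6 with the transgene (symbols for the library sets) and the mean in black. At 8 or more UMIs Siglech, Selplg, Sall1, P2ry12 and Tmem119 lie at or below 63.6% in every library, while Cx3cr1 stays between 67.6% and 95.7%.

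In nuclei with few activation UMIs 4 of the members were called lower with tau, and activation genes differed there as well. With the transgene 10 of 16 activation genes tested were called higher in them, with a list median of log2 0.95 (Axl 4.42, Cd9 1.00, Itgax 3.80, Cst7 4.00), and 0 lower, against 5.03% of all genes called higher. The part of this in the members' values was not tested. Among nuclei below the limit, all 10 members had a lower fitted level with the transgene over both backgrounds, and the 4 called stood against 3.05% of all genes called lower and 8.07% in either direction (9649 tested): Slc2a5 (log2 -1.05, adjusted p 0.00142), Selplg (-0.81, adjusted p 0.000498), Siglech (-0.59, adjusted p 0.00242) and P2ry12 (-0.43, adjusted p 0.0490). Selplg in these nuclei stood at 823, 951 and 816 CPM in WT and at 401, 305 and 473 CPM in PS19. In 9 of 10 members the PS19 libraries lay below the WT libraries, against 9.37% of all genes. The P2ry12 call was lost without any 1 of 10 libraries, with an adjusted p up to 0.158, and with the close pairs summed (adjusted p 0.0553). With the library set as a block 8 members were called lower, against 11.7% of all genes called in either direction.

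The wider gene lists moved with the members in part. Of all genes tested in bulk at 9 months, 7.68% were called higher and 5.09% lower. In bulk at 9 months, of 20 other homeostatic genes tested 11 were called higher and 1 lower (among them Cd33 log2 1.22, Csf1r 0.94, Tgfbr1 0.73, and Smad3 -0.45), with a list median of 0.71. Of 10 ligands and partners tested, 4 were called higher, among them Tyrobp, the adaptor of Siglech (log2 2.26), and Tgfb1 (1.26), and 1 lower, the fractalkine gene Cx3cl1 (-0.24). Of 8 other purinergic receptors, 3 were called higher (Adora3 1.44, P2rx7 0.69, P2rx4 0.62), and of 12 transcription factors 5 (Irf8 1.72, Spi1, which encodes PU.1, 1.52, Ikzf1 1.13, Cebpa 0.66). Of 19 activation genes 16 were called higher (Cst7 6.05, Itgax 5.74). Of 7 hexose transporters, 2 were called lower (Slc2a3 -0.35, Slc2a13 -0.25) and none higher.

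Within PS19 microglia the other homeostatic genes followed the members down: 8 of 20 were called lower and 0 higher (Ecscr log2 -2.21, Adgrg1 -1.34, Csf1r -0.70, Entpd1 -0.59), with a list median of -0.57. Of all genes tested in microglia, 5.8% were called higher and 4.66% lower. Here Csf1r and Tgfb1 (-0.71) were lower, while both were higher in bulk. Csf1, a ligand of Csf1r, was higher by log2 4.04, from 13.3 ± 4.23 CPM in WT (SD, n = 3) to 224 CPM in PS19 (n = 3, range 119 to 318). Of 4 other purinergic receptors tested 1 was called higher (P2rx4, 1.40) and 0 lower, of 4 hexose transporters 1 higher (Slc2a3, 1.07) and 0 lower, and of 12 transcription factors 2 higher (Bhlhe40 3.97, Mitf 1.23) and 0 lower. Of 19 activation genes 15 were called higher (Itgax 6.32, Axl 5.89, Lgals3 5.78, Lpl 4.84). In CLEAR_PS19 against CLEAR, 9 of 19 activation genes (Cst7 3.99) and Csf1 (3.00) were called higher, and none of the homeostatic lists, against 0.666% of all genes called higher. Over the 14 microglial sums, the genes that followed the members' mean most closely were Slco4a1 (Pearson r 0.983), Alox5ap (0.970) and Ecscr (0.968).

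Markers of other cells moved with the bulk result in part. Summed border macrophage markers ranged from 24.2 to 46.7 CPM in WT and from 41.4 to 66.1 CPM in PS19 at 9 months, with 1 of 7 tested called higher (Mrc1, log2 0.97), against 7.68% of all genes. Within PS19 all but 1 of the 7 were called higher at 9 than at 4 months (F13a1 log2 1.76, Mrc1 1.46, Stab1 0.63, Ms4a7 1.94), against 10% of all genes called higher. At 4 months all 7 had a lower fitted level in PS19 than in WT, from log2 -1.31 (Ms4a7) to -0.12 (Stab1), and none was called. Summed members ranged from 226 to 237 CPM in WT and from 352 to 449.8 CPM in PS19. Choroid plexus markers ranged from 693 to 4976 CPM in WT and from 4465 to 5713 CPM in PS19 at 9 months and from 50.8 to 6226 CPM at 4 months, with none of 5 called. In microglial nuclei Ms4a7 was higher in PS19 (log2 3.58) and Stab1 lower (-1.29). The part of these cells in the members' values was not tested.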

How the data were processed

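Bulk RNA-seq (21 libraries) and single nuclei (14 libraries) of mouse hippocampus were compared by the genotype and age in the labels. The authors deposited bulk values as unnormalized counts of reads for each gene. Of the 21 tables, 1 names featureCounts 2.0.0 without strand, per the file headers, and cutadapt, STAR, DESeq2 and the build mm10 are named per the submitters' processing notes. For nuclei the authors deposited whole UMI counts of each gene in each barcode; the file headers name Cell Ranger 5.0.1, and the treatment of introns is not given in the sources used here. Gene coordinates were taken from GENCODE M21 (32235 of 32285 genes matched).

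Of 144991 barcodes, 144884 had at least 300 genes and under 5% mitochondrial UMIs, and 12562 doublets were removed from them. They were called per library from simulated doublets at 0.8% per 1000 nuclei, 6.11% to 13.5% of a library. Clusters were made with 2000 variable genes, the members and 20 other homeostatic genes left out, 30 principal components, 20 neighbours and Leiden resolution 1 (leidenalg 0.10.2). They were named from marker lists that hold no member, so "microglia" means like microglia, and 10431 nuclei stayed unnamed. Clusters and names were rebuilt here and may differ from the authors' own.

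Counts were summed per library over microglial or over all nuclei. edgeR 4.0.16 (R 4.3.3) fitted its quasi-likelihood test with TMM and filterByExpr, 4 groups in 1 fit, with sex as a covariate for nuclei. All tests were two-sided with Benjamini-Hochberg adjustment over all genes tested and a threshold of 0.05. CPM per library use TMM, while shares of UMIs, within-set ratios, parts of tissue and levels by class use plain CPM. Genotype labels were exchanged in all ways for an exact permutation test of the microglial share. On simulated data with 200 changed genes the bulk fit at 9 months (16133 genes) recovered 82% of 1.5-fold and 100% of 3-fold changes, and the PS19 fit of microglia (10364 genes) 7% and 97%. The labels do not say whether libraries of a group came from separate animals, so p-values measure the spread between these samples. Promoter sequences come from RefSeq (GRCm38.p6). Genes of each other list were named by the smallest adjusted p, at most 4 per comparison, and Cx3cl1 and Smad3, each the 1 gene of its list called lower in bulk, were named after their values were seen. A gene that these rules also name is not reported here. The members and lists were chosen with earlier results of these data known. Alternatives were RLE size factors, DESeq2 1.42.0, no filter, blocks for replicate number or library set, no sex term, only the groups compared, each library left out, doublets kept, at least 1000 genes, other clusterings, other activation limits and, chosen after seeing the data, close pairs of libraries summed.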

Additional observations from a re-analysis of the deposited data

Results flagged for a closer look

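Of 82 groups of 4 to 6 libraries looked at for a value far from the others, 2 had one, and chance gives about 1 in 20. P2ry12 stood at 32.1 CPM in PS19 replicate 6 at 4 months, the lowest of 6 bulk libraries. Cx3cr1 stood at 53.9 CPM in WT replicate 5 at 9 months, the highest of 5.

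The PS19 difference in bulk changed between 4 and 9 months, by the test of that difference, for 8 members. The change on the log2 scale was 0.84 for P2ry13, 1.05 for Tmem119, 1.14 for Cx3cr1, 0.89 for Siglech, 0.63 for Selplg, 0.86 for Gpr34, 1.03 for Olfml3 and 0.56 for Sall1.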

How the results depend on the processing

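Of 4590 refits of single members, 4338 kept the side of the threshold (96 of them values not called that changed sign), 137 lost the call, 115 gained one and 0 called the opposite direction. Leaving out 1 library gave 4 to 10 called members in microglia for PS19 against WT (8 with all), 0 to 8 for CLEAR_PS19 against PS19 (1), 0 to 3 for the difference between backgrounds (0), 0 to 6 in all nuclei for PS19 against WT (6), and 3 to 7 in nuclei with few activation UMIs (4). For CLEAR_PS19 against PS19 in microglia the count was 4 with DESeq2, 8 without a filter and 0 without the sex term, with the library set as a block or with only the groups compared. Without a filter it was 1 for CLEAR_PS19 against CLEAR and 5 for the difference between backgrounds. With the library set as a block it was 1 for CLEAR_PS19 against CLEAR, 10 for tau over both backgrounds and 8 in nuclei with few activation UMIs. In all nuclei it was 0 for PS19 against WT with only the groups compared. Keeping only nuclei of at least 1000 genes, it was 2 for PS19 against WT and 2 for tau over both backgrounds, and the microglial share differed by 4.98 points with an adjusted exact permutation p of 0.0543. With the close pairs of CLEAR and of CLEAR_PS19 libraries summed, chosen after seeing the data, it was 0 in microglia for CLEAR_PS19 against PS19 and 3 in all nuclei for PS19 against WT. Of 40 shares of nuclei with a UMI, 1 moved by less than the spread between libraries when thinned to 2000 UMIs. The cause of each other change was not tested. The replicate numbers were not taken to pair the libraries. In bulk, same-numbered libraries had a correlation of deviations over 0.1 in 7 of 28 pairs (mean 0.00886, lowest -0.294). In microglia 10 of 19 pairs did (mean 0.0860, lowest -0.464, mean of other pairs -0.0283). In all nuclei 12 of 19 did (mean 0.197, lowest -0.395, mean of other pairs -0.0639). Same-numbered nuclei libraries were thus more alike on average than others, so counts with the replicate number as a block are given too. With a replicate block the count in microglia was 1 for CLEAR_PS19 against CLEAR, 10 for tau over both backgrounds, 1 for CLEAR against WT, 8 for CLEAR_PS19 against PS19 and 8 with few activation UMIs, and in all nuclei 2 for CLEAR against WT and 2 for CLEAR_PS19 against PS19. Calls over all genes moved by over 1.5 times in several comparisons. In bulk, PS19 against WT at 9 months gave 2060 and 1185 without PS19 replicate 5, the difference between ages 872 and 514, and PS19 at 9 against 4 months 2788 and 1749, both without that library. At 4 months it gave 3 and 11 with DESeq2, and WT at 9 against 4 months 0 and 76 with DESeq2. In microglia, PS19 against WT gave 1084 and 534 without WT replicate 2, CLEAR_PS19 against CLEAR 77 (8 without CLEAR replicate 1, 495 without a filter), CLEAR against WT 1 (277 with the replicate block), CLEAR_PS19 against PS19 64 (2 without PS19 replicate 2, 2106 with the replicate block), the difference between backgrounds 0 (212 without a filter), nuclei with few activation UMIs 779 (514 with a limit of 3 UMIs, 1170 without a filter) and many against few 983 (478 with DESeq2). In all nuclei, PS19 against WT gave 1339 (21 with only the groups compared, 204 without WT replicate 2, 2856 with the library set as a block), tau over both backgrounds 1469 (728 without WT replicate 2, 2869 with the library set as a block), CLEAR_PS19 against CLEAR 15 (3 with the close pairs summed, 233 with DESeq2), CLEAR against WT 1 (4590 with the replicate block), CLEAR_PS19 against PS19 2 (6152 with the replicate block) and the difference between backgrounds 0 (46 with DESeq2). On simulated microglia of PS19 and WT, with 3 libraries a group, 7% of 1.5-fold changes were called.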
